A study of Mus musculus with 6 samples.

Results

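The integrated stress response is the programme by which a cell slows general protein synthesis and translates a few regulator mRNAs more when a stress kinase phosphorylates the initiation factor eIF2. The regulators, led by the transcription factor ATF4, switch on genes of amino acid supply and of cell death, and 2 phosphatase subunits end the response. Several of the regulator mRNAs carry upstream open reading frames (uORFs), short frames in the 5′ untranslated region (5′ UTR) that ribosomes meet before the main start codon. In astrocytes the programme is best known from diseases of white matter caused by mutations of the eIF2B complex.

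There were 9 genes of this programme, chosen by symbol from the deposited gene tables, where they are spelled ATF4, ATF5, DDIT3, PPP1R15A, PPP1R15B, NUPR1, TRIB3, ASNS and PHGDH. All 9 were among the 13278 genes listed in both extractions, and 0 were in the lists of 1 extraction alone. The tables hold 13970 genes in all, 95.0% of them listed in both extractions. The 9 fall into 5 regulators with uORFs (Atf4, Atf5, Ddit3, Ppp1r15a and Ppp1r15b), 2 target enzymes of amino acid synthesis (Asns and Phgdh) and 2 other targets (Nupr1 and Trib3). The list was drawn up with the ratios of these data known, so every value given for it is a description and none was tested.

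RNA was sequenced from pellets of heavy complexes, that is ribosomes, polyribosomes and other large RNA-protein particles, of untreated primary mouse astrocytes. Cells came from newborn C57BL/6JOlaHsd mice, males and females pooled. The 3 libraries of the optimized extraction (batches A, B and C) came from cells lysed directly in the culture plate, in a buffer of higher salt with DDM, a mild detergent. The 3 libraries of the standard extraction (batches A, B and C) came from cells that had been scraped, frozen and thawed before lysis in Triton X-100 with deoxycholate and less salt. Cycloheximide, which stops elongating ribosomes on the mRNA, was present in both lysis buffers. No sample was stressed on purpose, and the contrast is one of extraction. The handling of the cells before lysis differed with it, and its part in the ratios was not tested. All 10 astrocyte marker genes looked up, Gfap and Aqp4 among them, were listed in both extractions. Of markers of other cells, 2 of 7 for microglia and macrophages, 7 of 9 for the oligodendrocyte lineage, 4 of 7 for neurons and 5 of 7 for fibroblasts and endothelium were listed too. The log2 ratios of these markers, optimized over standard extraction, had medians of 0.97 for astrocytes, 0.80 for microglia and macrophages, 0.91 for the oligodendrocyte lineage, 0.68 for neurons and 0.50 for fibroblasts and endothelium. Each of these medians was below the median of 1.09 of all shared genes, on the side of Asns and Phgdh. The markers below it were 8 of 10, 2 of 2, 5 of 7, 3 of 4 and 5 of 5 in the same order. Their part in the ratios of the 9 genes was not tested.

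The authors' deposited tables give 1 log2 ratio per gene, optimized over standard extraction, with no value per library and no error. The spread between batches, the depth and the level of each gene are therefore unknown. A pellet does not separate polyribosomes from other heavy particles. A higher ratio is not a measure of translation, and in such bulk samples a change in the cells that were lysed and in the RNA per cell cannot be told apart. The ratios of all shared genes were centred well above 0: their median was 1.09 (2.13-fold), the middle 50% lay between 0.90 and 1.27, and 99.6% were above 0. The scaling of the libraries is a step not given in the sources used here. Each gene is therefore set against that median, called the overall median.

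The upstream frames of the members are shown because the regulators among the 9 genes were grouped by their uORFs. Each line gives a 30-base window of the annotated mRNA, 5′ to 3′, from GENCODE M21 (GRCm38, the assembly of mm10). The capitals ATG mark the upstream start, and capitals further on, where present, mark its stop codon. All starts lie in exon 1, in the 5′ UTR. For each gene the window is that of the separate upstream frame nearest to the main start, and for Atf4 and Atf5 also that of the 3-codon frame before it.
Atf4, frame of 3 codons, chr15:80255570-80255599, plus strand: cttgcggccaccATGgcgtatTAGaggcag
Atf4, frame of 59 codons, window from chr15:80255669 to chr15:80256219 across an intron, plus strand: ccggcctaagccATGgcgctcttcacgaaa
Atf5, frame of 3 codons, chr7:44816520-44816549, minus strand: tccgcccgcgcaATGgctctgTAGccgcga
Atf5, frame of 58 codons, window from chr7:44815270 to chr7:44816418 across an intron, minus strand: cttttcgccgccATGgagtcctccaccttc
Ddit3, frame of 34 codons, chr10:127290817-127290846, plus strand: gtcgattatatcATGttgaagatgagcggg
Ppp1r15a, frame of 26 codons, chr7:45526072-45526101, minus strand: cctgagggcgacATGaacccgctggcttcg
Ppp1r15b, frame of 51 codons, chr1:133131505-133131534, plus strand: tccctagccgggATGgacctaaccgcggtc
Nupr1, frame of 24 codons, chr7:126625591-126625620, minus strand: ggactgctgtctATGggcccagttctggga
Asns, frame of 14 codons, chr6:7693216-7693245, minus strand: ggtcccagccacATGatgaaacttcccgca

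Atf4 and Atf5 both have a frame of 3 codons followed by a long frame that runs past the main start. In Atf4 the long frame ends 83 bases inside the coding sequence, and in Atf5 it ends 56 bases inside it. Atf4 has a further upstream frame of 36 codons nearer to its 5′ end. In Ddit3 the frame of 34 codons ends 26 bases before the main start, and an ATG inside it opens a frame of 31 codons with the same stop. The last frame of Ppp1r15a ends 23 bases before the main start and that of Ppp1r15b 74 bases before it. Trib3 and Phgdh have 0 upstream ATGs in their annotated 5′ UTRs of 176 and 158 bases. Of the 9 windows, 7 have A or G 3 bases before the ATG, 6 have G right after it, and 5 have both, the context that favours initiation in mammals. Both features are absent at the ATG marked in the Asns window, and Nupr1 has the second alone. In Asns another ATG follows directly and opens a frame of 13 codons with the same stop. That ATG has the first feature alone.

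**Figure D1:**
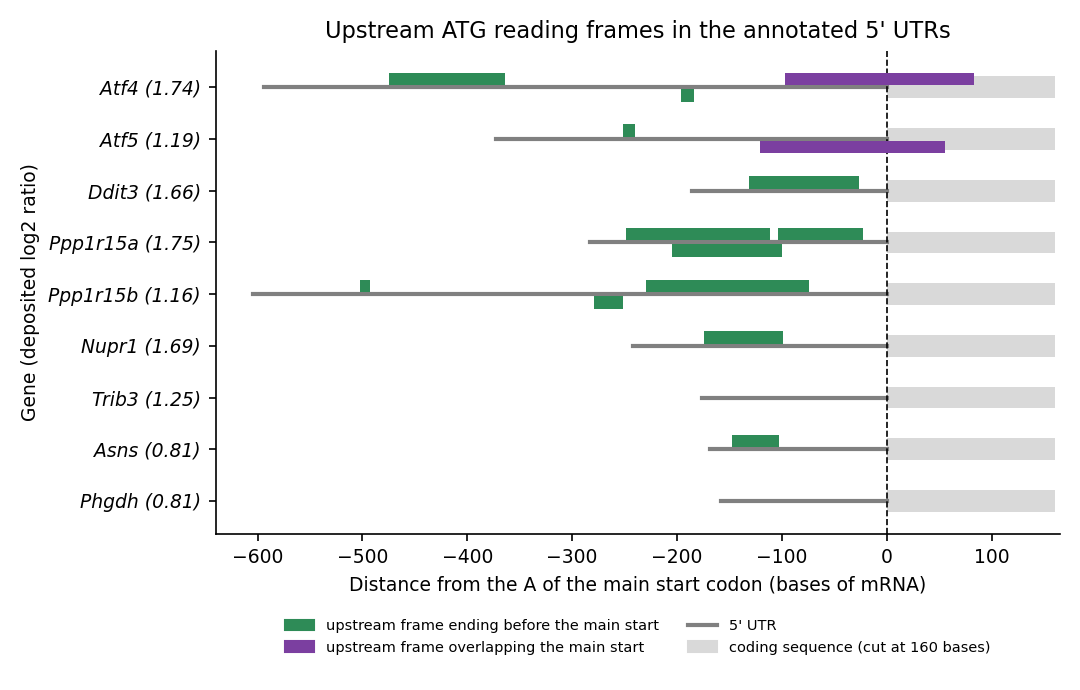
Reading frames that begin at an upstream ATG in the annotated 5′ UTR of each gene, drawn against the distance in bases of mRNA from the main start codon, without frames nested in a longer one; the number after each symbol is its deposited log2 ratio, optimized over standard extraction. The long frames of Atf4 and Atf5 cross the main start, those of the other genes end before it, and Trib3 and Phgdh have no frame.

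The 5 regulators with uORFs all lay above the overall median, and the 2 target enzymes lay below it. The regulators had a median log2 ratio of 1.66 (3.17-fold) and a range of 1.16 to 1.75. The enzymes had a median of 0.81 (1.75-fold), and their 2 values differed by 0.0024. The difference of medians, regulators minus enzymes, was 0.85 on the log2 scale. It was 0.45 with 14 further mRNAs known for regulatory uORFs counted among the regulators. Not all of those 14 have an upstream ATG in the representative transcript searched. The lowest regulator still had a higher ratio than either enzyme. Over all 9 genes, 7 lay above the overall median and 2 below it, where by its definition 50.0% of all shared genes lie on each side. Of the 9, 7 were listed as at least 2-fold higher, against 63.0% of all shared genes. Of the 9, 4 were at least 2.5-fold higher, against 19.6% of all shared genes, and all 9 were at least 1.5-fold higher, against 94.6%. Since the list was made with these ratios in view, nothing is read from the counts.

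**Figure D2:**
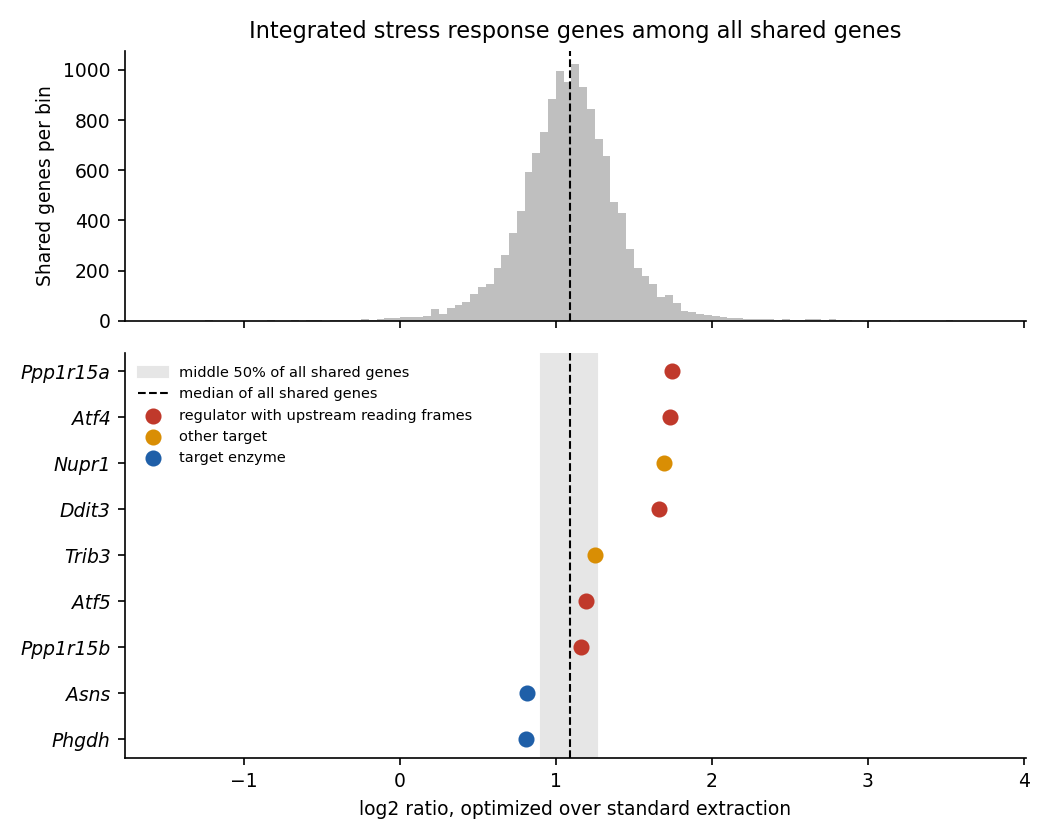
Top, number of shared genes per bin of 0.05 in log2 ratio, optimized over standard extraction; bottom, the same ratio of each of the 9 genes in the authors' deposited table, coloured by role, with the median (dashed line) and the middle 50% (grey) of all shared genes. Atf4, Ddit3, Ppp1r15a and Nupr1 lie between 1.66 and 1.75, Atf5, Ppp1r15b and Trib3 between 1.16 and 1.25, and Asns and Phgdh at 0.81.

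Within the regulators, 3 stood near the top of all shared genes and the other two near the middle. Ppp1r15a (chr7:45522916-45526268), the stress-induced subunit that directs the phosphatase PP1 to eIF2, had the highest value of the 9, a log2 ratio of 1.75 (3.36-fold) in the authors' deposited table. It ranked 316th from the highest of the 13278 shared genes, with 97.6% of them lower. Atf4 (chr15:80255184-80257541), the transcription factor at the centre of the response, was listed at 1.74 (3.33-fold) in the authors' deposited table, rank 334, with 97.5% of the shared genes lower. Ddit3 (chr10:127290774-127296288), which encodes the transcription factor CHOP of prolonged stress, was listed at 1.66 (3.17-fold) in the authors' deposited table, rank 486, with 96.3% lower. These 3 lay 0.66, 0.65 and 0.58 above the overall median.

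The 2 remaining regulators lay within the middle 50% of all shared genes. Atf5 (chr7:44812256-44816658), a transcription factor related to ATF4 that also serves the mitochondrial stress response, was listed at 1.19 (2.28-fold) in the authors' deposited table, with 65.1% of the shared genes lower. Ppp1r15b (chr1:133131143-133139783), the PP1 subunit that cells keep without stress, was listed at 1.16 (2.24-fold) in the authors' deposited table, with 61.0% lower. Each is the relative of a gene in the high group. Atf4 stood 0.54 above Atf5 on the log2 scale (1.46-fold). Both mRNAs have a 3-codon frame and an overlapping frame, and Atf4 has the frame of 36 codons besides. Ppp1r15a stood 0.59 above Ppp1r15b (1.502-fold), and each of these mRNAs has 3 upstream ATGs. These counts are for 1 representative transcript per gene. Over the annotated coding transcripts they run from 2 to 3 for Atf4, 2 to 6 for Atf5 and 3 to 7 for Ppp1r15a, and the 5′ ends used in these cells are not known.

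The other targets were also split. Nupr1 (chr7:126623249-126630861), a small stress-induced chromatin protein, was listed at 1.69 (3.24-fold) in the authors' deposited table, with 96.8% of the shared genes lower. That is between Ddit3 and Atf4. Trib3 (chr2:152337422-152344032), a pseudokinase induced by ATF4 and CHOP that holds back the same factors, was listed at 1.25 (2.38-fold) in the authors' deposited table, with 73.1% lower. Trib3 thus lay 0.16 above the overall median, inside the middle 50%, and 0.41 below Ddit3.

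The enzymes were the only 2 of the 9 genes below the overall median. Asns (chr6:7675169-7693254), asparagine synthetase, was listed at 0.81 (1.76-fold) in the authors' deposited table, with 16.4% of the shared genes lower. Phgdh (chr3:98313170-98339990), which begins serine synthesis from a glycolytic intermediate and is abundant in astrocytes, was listed at 0.81 (1.75-fold) in the authors' deposited table, with 16.2% lower. After subtraction of the overall median they stood at -0.27 and -0.28. Asns lay 0.92 below Atf4, the factor that activates it.

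Reads of 4 of the genes may be shared with others. Of the 50-base stretches of the Phgdh mRNA, 63.1% occur in transcripts of 23 other annotated genes, 20 of them pseudogenes, and 0 of the 23 were listed in the shared table. The handling of reads that map to several places is a step not given in the sources used here. To that extent the Phgdh ratio is uncertain. A second gene annotated as Ddit3 (chr10, 127290829 to 127293753) begins at the upstream ATG shown above and lies within Ddit3 on the same strand. It was not listed, and 8.92% of the 50-base stretches of Ddit3 occur in it or in the tRNA synthetase gene Mars on the opposite strand. Atf5 shares 2.04% with Nup62 and Il4i1, and Ppp1r15b shares 10.7% with the unverified transcript Gm26616, all on the opposite strand. The kit marks strand, but whether counting used it is not given. Atf4, Ppp1r15a, Nupr1, Trib3 and Asns shared 0 such stretches with another gene.

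Coding length differed among the 9 genes without ordering them. Over 12604 shared protein-coding genes, shorter coding sequences had higher ratios (Spearman rho -0.20 across genes measured in the same 6 libraries, a description with no test). The 2521 genes with the shortest coding sequences (78 to 771 bases) had a median log2 ratio of 1.22, and the 2515 with the longest (2577 bases and more) had one of 1.03. Nupr1 has 243 coding bases, and the 104 genes within 10% of that length had a median of 1.47, so Nupr1 stood 0.22 above genes of like length and above 76.9% of them. Ddit3, with 507 coding bases, stood 0.45 above genes of like length and above 95.5% of them. The long coding sequence of Ppp1r15a, 1974 bases, set it 0.69 above its like and above 99.6% of them, and Atf4, 1050 bases, stood 0.67 above and exceeded 98.8%. Ppp1r15b (2094 bases) and Atf5 (852 bases) stood 0.11 and 0.08 above genes of like length, and Trib3 (1065 bases) 0.19 above. Asns (1686 bases) and Phgdh (1602 bases) stood at -0.24 each relative to their like, with 16.5% and 18.1% of those genes lower.

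**Figure D3:**
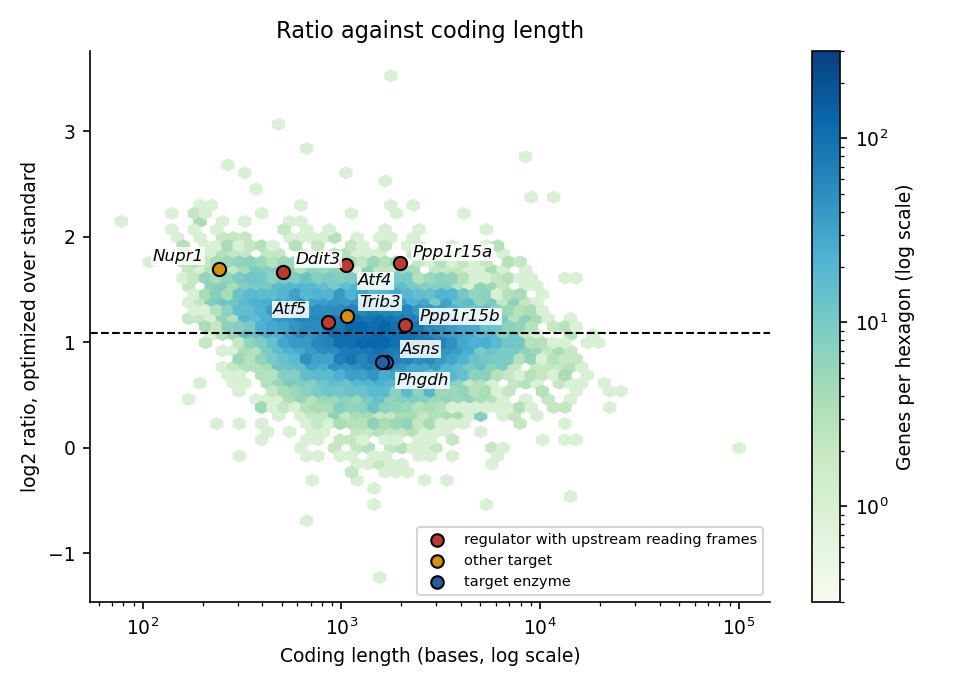
Log2 ratio, optimized over standard extraction, against coding length (log axis) for 12604 shared protein-coding genes (hexagons coloured by the number of genes) and the 9 genes (points coloured by role); the dashed line is the overall median. Atf4 and Ppp1r15a lie far above genes of their length, Nupr1 lies in a region of high ratios at short lengths, and Asns and Phgdh lie below the line.

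Upstream ATGs are common and went with a small difference over all genes. Of 12384 shared protein-coding genes with an annotated 5′ UTR, 52.2% have at least 1 upstream ATG and 16.3% have a frame that overlaps the main start. Genes with 0 upstream ATGs had a median log2 ratio of 1.05, and those with 1, 2 and 3 or more had medians of 1.09, 1.11 and 1.12. Those with an overlapping frame had a median of 1.14. Longer 5′ UTRs hold more ATGs (median 114 bases with 0 upstream ATGs and 424 with 3 or more). The number of ATGs and the length were not separated here. The 5′ UTRs of Atf4 and Ppp1r15b are long (594 and 604 bases) beside a median of 183, and that of Ddit3 (186 bases) is close to it. The 3′ UTRs of Nupr1 and Trib3 have 344 and 785 bases. Those of Ppp1r15a, Atf4 and Ddit3 (76, 81 and 197 bases) are shorter than those of Atf5 and Ppp1r15b (591 and 2896 bases). Those of Asns and Phgdh are short as well (146 and 133 bases), and the 2499 genes with the shortest 3′ UTRs (up to 356 bases) had a median log2 ratio of 1.05.

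The machinery that starts the response lay at the overall median. The 4 eIF2 kinases had a median log2 ratio of 1.09, with 2 above and 2 below the overall median. The authors' deposited table listed Eif2ak1 at 1.00, Eif2ak3 (PERK, the kinase of the endoplasmic reticulum) at 1.08, Eif2ak2 (PKR, activated by double-stranded RNA) at 1.09 and Eif2ak4 (GCN2, the amino acid sensor) at 1.32. The 8 subunits of eIF2 and of its exchange factor eIF2B also had a median of 1.09, with 4 above and 4 below. The authors' deposited table had Eif2b4 and Eif2b3 lowest, at 1.01 and 1.03, and Eif2s3x and Eif2s2 highest, at 1.29 and 1.21. The 3 catalytic subunits of PP1, partners of PPP1R15A and PPP1R15B, all lay above the overall median. They were close to one another in the authors' deposited table, Ppp1cb at 1.21, Ppp1cc at 1.25 and Ppp1ca at 1.28.

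Related transcription factors and other mRNAs known for regulatory uORFs spread over both sides. Of 14 other bZIP factors and regulators of neighbouring stress pathways, the family to which ATF4, ATF5 and CHOP belong, 10 lay above the overall median and 4 below, with a list median of 1.15. Cebpd and Jund were highest (1.38 and 1.36) and Creb3 and Atf6, whose proteins are made as membrane proteins, lowest (0.81 and 0.86) in the authors' deposited table. Of 14 further mRNAs with known regulatory uORFs, 10 lay above and 4 below, with a list median of 1.26. The authors' deposited table listed Sat1 and Ifrd1, of polyamine breakdown and of transcriptional regulation, at 1.60 each. The arginine transporter gene Slc7a1 was listed at 0.79 and the deubiquitinase gene Uchl5 at 0.88 in the authors' deposited table. The list was not made from the upstream ATGs searched here. Uchl5, and Cdkn1b of the same list, have 0 upstream ATGs in the representative transcript. Ratios among these 14 mRNAs covered 0.79 to 1.60, on both sides of the overall median. Some genes, such as Cebpa and Cebpb, are in more than one of the lists.

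Other targets of the response that supply amino acids lay mostly on the side of Asns and Phgdh. Of 14 genes of amino acid synthesis and one-carbon metabolism, 10 lay below the overall median, and the list median was 0.86. Psat1 and Psph, of serine synthesis like Phgdh, lay close to the overall median, at 1.11 and 1.08 in the authors' deposited table. The proline pathway gene Aldh18a1 and the mitochondrial folate enzyme gene Aldh1l2 were lowest (0.72 and 0.73), and the alanine transaminase gene Gpt2 and the glutamine synthetase gene Glul highest (1.20 and 1.18), in the authors' deposited table. Of 13 tRNA synthetase and tRNA export genes, 11 lay below, with a median of 0.96. Iars and Lars were lowest (0.79 and 0.87) and Xpot, a tRNA exportin, and Sars highest (1.14 and 1.10) in the authors' deposited table. Of 10 amino acid transporters, which are membrane proteins made at the endoplasmic reticulum, 9 lay below, with a median of 0.80. Slc7a3 and Slc1a5 were lowest (-0.02 and 0.42) and the heavy chain gene Slc3a2 and Slc38a2 highest (1.11 and 0.91) in the authors' deposited table.

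Targets of stress and growth control lay on both sides of the overall median. Of 22 such genes, 10 lay above it and 12 below, with a median of 1.05. Eif4ebp1, which restrains cap-dependent initiation, was listed at 1.65 and the autophagy gene Map1lc3b at 1.51 in the authors' deposited table. At the other end, the lipoprotein receptor gene Vldlr was listed at 0.69 and the death receptor gene Tnfrsf10b at 0.70 in the authors' deposited table. Of 17 chaperone and quality control genes of the endoplasmic reticulum, turned on by the related unfolded protein response, 15 lay below, with a median of 0.81. Pdia4 and Hyou1 were lowest (0.67 and 0.70) and Manf and Edem1 highest (1.26 and 1.12) in the authors' deposited table. Counting each gene once, 115 pathway genes outside the 9 were listed in both extractions, with a median of 1.00, 46 above the overall median and 69 below. The highest of the 115, Eif4ebp1, stood below Ddit3, Nupr1, Atf4 and Ppp1r15a. The 9 genes and the lists were chosen with these ratios known, so nothing is read from that order. None of the 9 genes was in the study's own lists of ontology and pathway terms.

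**Figure D4:**
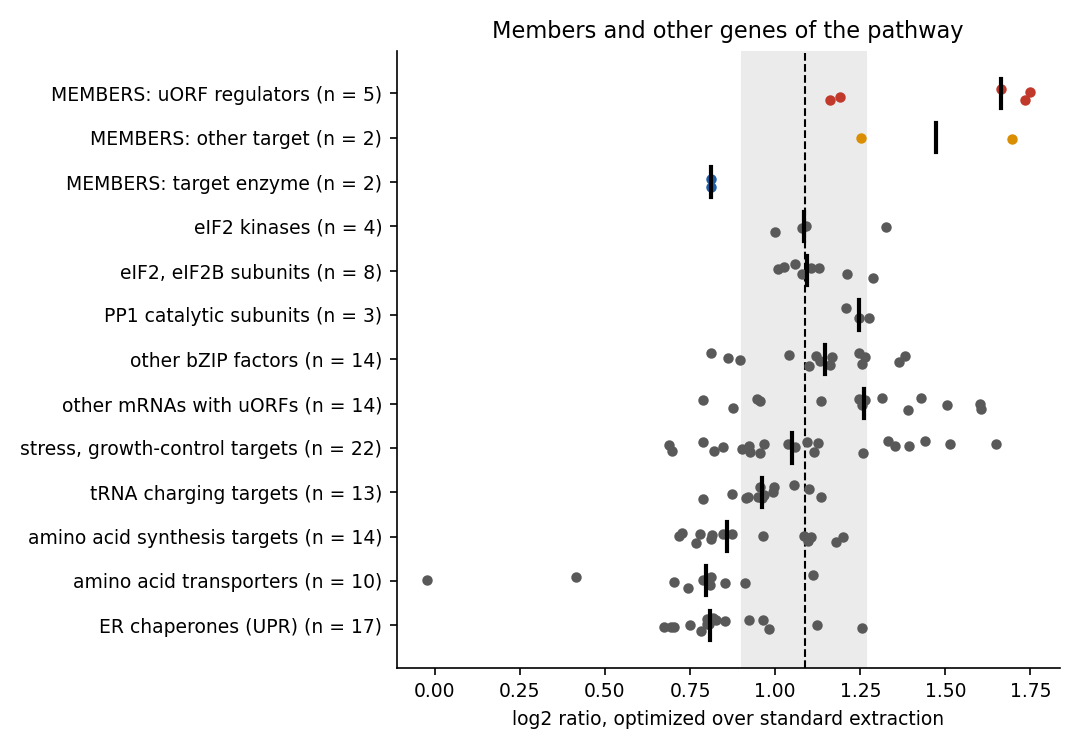
Log2 ratio, optimized over standard extraction, of the 9 genes by role (top 3 rows) and of the other pathway genes by list; each point is a gene, short black bars are list medians, the dashed line and the grey band are the median and the middle 50% of all shared genes, and vertical scatter within a row has no meaning. Kinases and eIF2 subunits centre on the dashed line, and enzymes, transporters and chaperones centre left of it.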

How the data were processed

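The values are log2 ratios of optimized over standard extraction, 1 per gene, from the authors' deposited table (per the file headers). Reads were handled with TopHat2, featureCounts and build mm10, per the submitters' processing notes. Of versions, strand setting, annotation, scaling, combination of batches and rule for listing a gene, nothing is given in the sources used here. The other deposited tables of 1 extraction alone hold gene names and biotypes and no measured value.

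The members and the gene lists were chosen with earlier results of these data known. Named genes were the 9 members and the 2 highest and 2 lowest of each list (all of a list of up to 4). A few others, such as Psat1 and Psph, are named beside the genes they bear on. No test across libraries was possible without values per library. Gene identifiers were matched to GENCODE M21 (13273 of 13278), which gave positions and, for 12604 of 12620 protein-coding genes, a representative transcript (complete, APPRIS principal, best supported). Upstream ATGs were searched in it by a routine tested on simulated data. Which 5′ end astrocytes use is not known. Unmatched columns of per-sample values numbered 0. Tables were read with pandas 2.3.3 under Python 3.11.15, numpy 2.4.6 and scipy 1.17.1 gave the summaries, and matplotlib 3.10.9 drew the figures.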

Additional observations from a re-analysis of the deposited data

How the results depend on the processing

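No paired analysis was possible because the deposited tables hold 1 ratio per gene and no values per library. A fit with the batch as a block and fits without each library were therefore not run, and depth sets no stated limit. Of the 9 genes, 7 were at least 2-fold, 4 at least 2.5-fold and 9 at least 1.5-fold higher. The median log2 ratio of the 5 regulators, 1.66, became 1.499 as a mean, 1.43 without Atf4 or Ppp1r15a, 1.46 without Ddit3 and 1.70 without Atf5 or Ppp1r15b. The enzymes' median, 0.81, became 1.03 with Nupr1 and Trib3 and 0.83 with the other amino acid synthesis genes. The difference of medians, regulators minus enzymes, was 0.85. It became 0.69 with means, 0.63 with Nupr1 and Trib3 among the targets and 0.83 with the other amino acid synthesis genes there. With 14 other mRNAs known for regulatory uORFs among the regulators it was 0.45, the smallest value. It was 0.62 without Atf4 or Ppp1r15a, 0.65 without Ddit3 and 0.89 without Atf5 or Ppp1r15b. The median of protein-coding genes in place of the overall median left 2 genes below. Less the median of protein-coding genes, Asns and Phgdh stood at -0.27 each and the other 7 above 0. The annotated coding transcripts of Asns with a complete start held 0 to 4 upstream ATGs.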
